A study of Homo sapiens and Mus musculus with 12 samples.

Results

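Natural killer (NK) cells sorted from the spleens of Ehmt2 knockout (KO) and wild-type (WT) mice were profiled by RNA-seq of polyA RNA, and all genes counted in these 6 of the 12 samples of the series were compared. WT mice were Ehmt2 flox/flox, with loxP sites flanking part of Ehmt2 on both chromosomes, and KO mice were Ehmt2 flox/flox; Ncr1-iCre. Both were on the C57BL/6J background, age- and sex-matched and between 8 and 12 weeks old. There were 3 libraries of each genotype, and the table listed 22021 genes, of which 13189 had enough counts to be tested. The samples' genotype label reads Ezh2-KO where their titles name EHMT2, and the titles were followed. Cre was driven by Ncr1, the gene of the NK receptor NKp46, so that recombination was directed to cells that had begun to express NKp46. NK cells were sorted as CD3- NK1.1+ cells. The labels do not say that the libraries came from separate animals, so p-values measure only the spread between these samples.

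EHMT2, also called G9a, forms a complex with its paralog EHMT1 and places methyl groups on lysine 9 of histone H3, a mark of silent chromatin away from constitutive heterochromatin. NK cells are innate lymphocytes that kill target cells with perforin and granzymes and secrete interferon-gamma. In the spleen they mature from CD27+ to CD11b+ cells, under T-bet, EOMES and ID2, and recognise targets through germline-encoded activating and inhibitory receptors, many of them lectin-like receptors of the Klr and Ly49 families.

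Ehmt2 itself lies on chromosome 17 of GRCm38 from 34898469 to 34914052. CPM are counts scaled to the library size after TMM adjustment, the main scaling used here. Ehmt2 was measured at 275, 284 and 285 CPM in WT replicates 1, 2 and 3 and at 171, 143 and 137 CPM in KO replicates 1, 2 and 3. All KO libraries were below all WT libraries, with a log2 fold change of −0.91 (SE 0.10, edgeR adjusted p = 0.0162) and a two-sided exact permutation p of 0.1, the smallest that 3 against 3 samples allow. The change was between −1.01 and −0.84 with any one library left out, but its edgeR adjusted p was 0.0587 without WT replicate 3, 0.0986 without KO replicate 2 and 0.121 without KO replicate 3. A count summed over the gene does not show which exons the remaining reads came from. Ehmt1, which encodes the partner subunit, did not pass the test (62.1, 66.5 and 59.1 CPM in WT and 58.2, 71.8 and 69.2 CPM in KO, log2 fold change 0.09, edgeR adjusted p = 0.572). Cdyl2, which encodes a chromodomain protein of the same 8-gene list of G9a partners, was the other member called, at 29.2, 32.9 and 26.9 CPM in WT and 37.1, 43.6 and 45.4 CPM in KO (log2 fold change 0.50, edgeR adjusted p = 0.0419). It lay just past the fold threshold and at −0.32 when the libraries were scaled to NK cell genes, a scale described with the marker genes. Among 11 other H3K9 methyltransferases and co-repressors Prdm16 was the only one called (log2 fold change −1.52), whereas Suv39h1 (−0.14) and Setdb1 (−0.04) were not. None of 11 H3K9 demethylases and none of 13 Polycomb repressive complex 2 genes was called by edgeR or by DESeq2 at an adjusted p under 0.01, and 3 demethylases and 1 Polycomb gene were higher at an unadjusted p under 0.05, with 1 Polycomb gene lower. Ezh2, the gene named in the genotype label, lay at 41.6, 44.7 and 45.8 CPM in WT and 35.0, 39.5 and 38.4 CPM in KO (log2 fold change −0.23, edgeR adjusted p = 0.116). Of 13 DNA methylation genes 1 fell, Uhrf1, which brings the maintenance methyltransferase to replicated DNA (33.4, 32.8 and 33.0 CPM in WT, 23.01, 23.4 and 21.1 CPM in KO, log2 fold change −0.56, edgeR adjusted p = 0.0269).

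The libraries held between 25891680 and 37438868 counts, with the fewest in WT replicate 2. On the 500 most variable genes the first principal component took 75.4% of the variance and separated the genotypes, with WT replicate 2 (−10.8) and KO replicate 1 (14.9) nearest to each other. A gene was called when its Benjamini-Hochberg adjusted p over all 13189 genes was under 0.05 and its absolute log2 fold change over 0.5. By this rule 372 genes rose in KO NK cells, 2.82% of those tested, and 882 fell, 6.69%. At an unadjusted p under 0.05 edgeR gave 2080 higher (15.8%) and 2639 lower (20%), and DESeq2 at an adjusted p under 0.01 gave 396 higher (3%) and 1099 lower (8.33%). On simulated data of this design DESeq2 made more false calls than edgeR at an adjusted p under 0.05, and 0.01 was not simulated. All KO libraries lay above all WT libraries for 2521 genes (19.1%) and below them for 2552 (19.3%). The smallest adjusted p was 0.0116, and at 0.01 edgeR called no gene. The called genes that rose had a median of 24.8 CPM in WT and 41.2 CPM in KO, and 105 of them changed by more than 1 on the log2 scale. Those that fell had medians of 24.1 and 10.6 CPM, and 479 of them changed by more than 1. WT replicate 2 was the WT library closest to the KO level for 299 of the 372 and 694 of the 882 genes, and KO replicate 1 was the KO library closest to the WT level for 257 and 575 of them. Without WT replicate 2 the counts were 905 higher and 1835 lower. Without WT replicate 1 they were 35 and 64, without WT replicate 3 they were 6 and 8, and without KO replicate 2 or KO replicate 3 edgeR called no gene, with 1295 higher and 1913 lower at an unadjusted p under 0.05 without the former and 1372 and 1915 without the latter. Of the 372 and 882 genes, 365 and 869 kept their call without WT replicate 2. Without KO replicate 1 the counts of genes called were 452 and 1222. The adjusted p of each gene that follows was computed from all 6 libraries. No called gene kept an adjusted p under 0.05 with every library left out in turn.

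**Figure D1:**
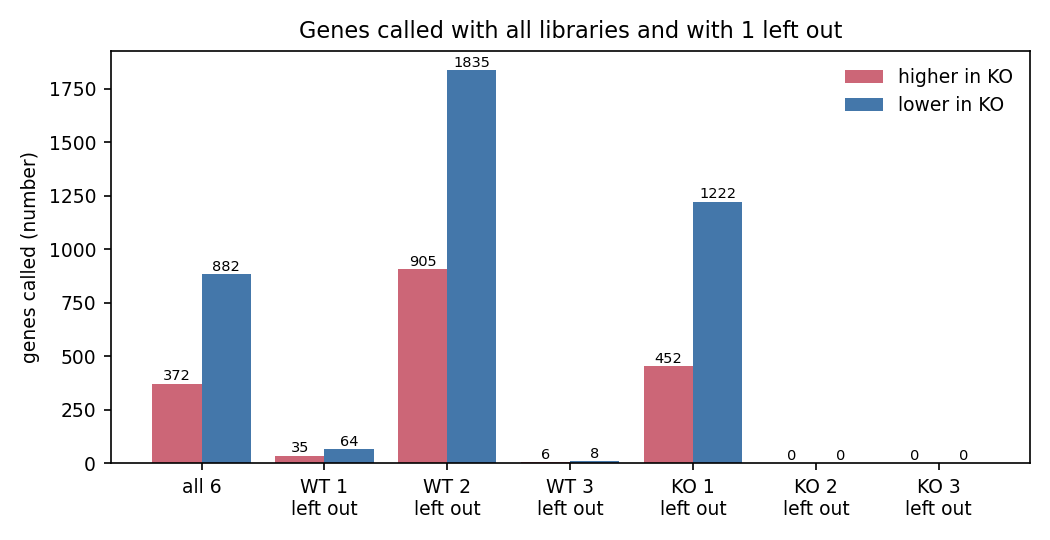
Number of genes called higher (red) and lower (blue) in KO NK cells with all 6 libraries and with each of them left out. The counts rise from 372 and 882 to 905 and 1835 without WT replicate 2 and fall to 0 without KO replicate 2 or KO replicate 3.

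The libraries also differed in how much RNA of NK cells and of other cells they held. The pan-NK list of 12 genes expressed throughout NK cells (Ncr1, Klrb1c, Klrk1, Klrd1, Klre1, Il2rb, Itga2, Eomes, Tbx21, Nkg7, Prf1 and Gzma) summed to 5614, 9534 and 5882 CPM in the WT libraries and to 10751, 12541 and 12395 CPM in the KO libraries. All of them had positive fold changes, their median was 0.79 on the log2 scale, and 7 were called. Klrb1c, which encodes the sorting antigen NK1.1, was at 304, 508 and 321 CPM in WT and 607, 636 and 743 CPM in KO. Genes of splenic red pulp macrophages, which recycle iron from aged red cells, summed to 11360, 3573 and 7517 CPM in WT and 3309, 1769.7 and 2567 CPM in KO. B cell genes summed to 1544, 977 and 2433 CPM in WT and 929, 349 and 316 CPM in KO, and neutrophil genes to 608, 276 and 1885 CPM in WT and 294, 80.2 and 76.4 CPM in KO. For macrophage, B cell, dendritic cell, erythroid, platelet and pancreatic acinar lists all KO libraries lay below all WT libraries. For neutrophil and T cell genes the ranges overlapped, with T cell genes at 352, 265 and 312 CPM in WT and 336, 216 and 235 CPM in KO. In bulk RNA fewer cells of a type and less RNA per cell cannot be told apart. The part of these other cells in the results that follow was not tested. A second scaling set the summed counts of the pan-NK list equal between libraries, so that a value on it is a change relative to these NK genes. On this pan-NK scale the median of all genes moved from 0.01 to −0.82, 35 genes were called higher and 8818 lower, and 170 of the 372 genes that rose kept a positive value. Both values are given for called genes that differ in direction between the scales.

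**Figure D2:**
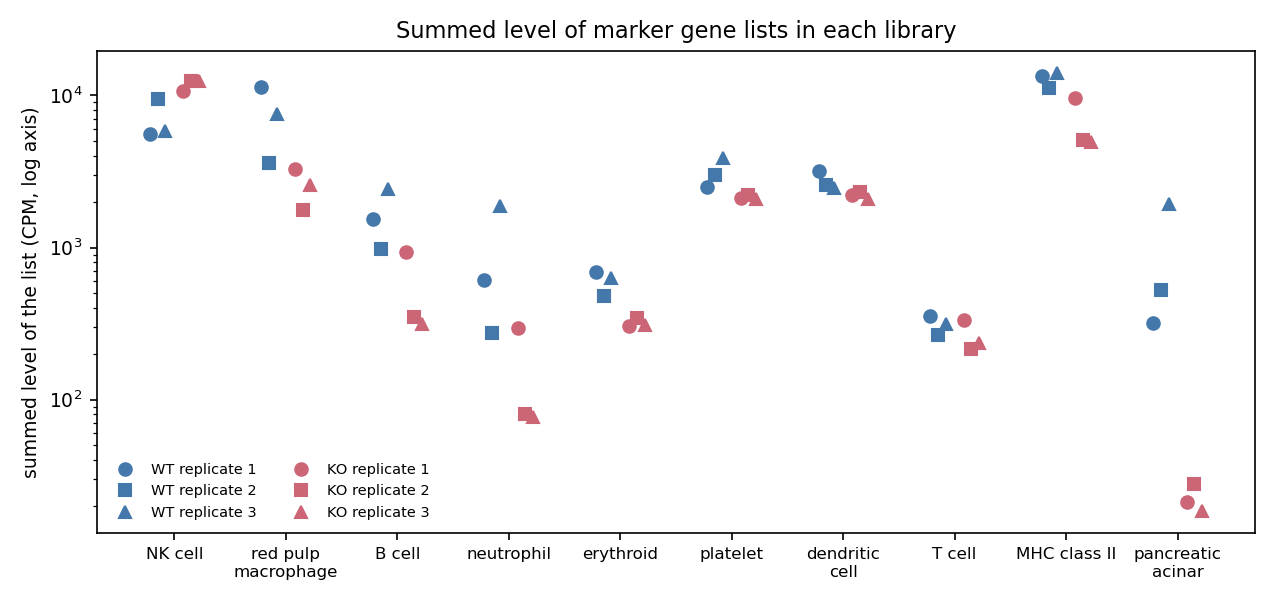
Summed level of lists of marker genes (CPM, log axis) in the 3 WT (blue) and 3 KO (red) libraries, with symbols for replicates 1 to 3. NK cell genes are higher in the KO libraries. Red pulp macrophage, B cell, erythroid, platelet, dendritic cell, MHC class II and pancreatic acinar genes are lower in all of them. For neutrophil and T cell genes the ranges overlap.

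Rundc3a, which encodes a RUN domain protein, was at 2.94, 5.12 and 4.14 CPM in WT and 27.9, 36.3 and 32.9 CPM in KO, 8.01-fold higher with groups far apart (edgeR adjusted p = 0.0116, the smallest of all genes, and a log2 fold change of 2.21 on the pan-NK scale). Phldb2, a cortical microtubule-anchoring protein, rose from 0.755, 0.465 and 0.107 CPM to 8.97, 9.59 and 9.79 CPM (log2 fold change 4.41). Akr1c12, an aldo-keto reductase, rose from 0.917, 1.94 and 0.967 CPM to 11.3, 12.4 and 12.4 CPM (log2 fold change 3.27). The 3 genes were low in every WT library and reached nearly the same level in every KO library. Kcnc1, a voltage-gated potassium channel, went from 7.26, 11.3 and 9.03 CPM to 38.6, 57.4 and 65.6 CPM (log2 fold change 2.56). Slc27a6, a fatty acid transporter, went from 3.56, 4.65 and 3.599 CPM to 15.3, 23.5 and 24.4 CPM (2.42), and Lcn4, a lipocalin, from 2.97, 4.03 and 1.45 CPM to 22.2, 20.4 and 19.4 CPM (2.89). The ranges did not overlap for any of them, as for all 372 genes called higher, and 19.1% of all genes tested lay higher in KO without overlap. The calls were made on these same libraries, so the lack of overlap adds no separate support.

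Kcnj8, the pore of an ATP-sensitive potassium channel, was already expressed in WT NK cells and rose from 25.1, 28.6 and 24.8 CPM to 71.3, 65.1 and 56.7 CPM (log2 fold change 1.30, 0.49 on the pan-NK scale). Cdh22, a cadherin, rose from 17.7, 29.4 and 21.3 CPM to 70.0, 70.0 and 84.5 CPM (1.72), Xkr6 by 1.96, Ildr1 by 1.29 and Fntb, the beta subunit of protein farnesyltransferase, by 1.07. Cym, which encodes the gastric protease chymosin, was at 9.77, 16.5 and 10.6 CPM in WT and 36.3, 37.8 and 38.2 CPM in KO (1.61). Sh2d1b2, an adaptor of SLAM family receptors in NK cells also known as ERT, rose from 1.24, 1.94 and 0.967 CPM to 4.32, 11.6 and 7.05 CPM (log2 fold change 2.48, edgeR adjusted p = 0.0279), and it was the one gene of the lists used here among the 35 called on the pan-NK scale. Of those 35, 31 were also among the 372, and 20 had a WT mean under 1 CPM. They included, chosen after their values were seen, Tmem151a (1.83 with TMM scaling and 1.11 on the pan-NK scale), Igsf5 (1.81 and 1.04), Ptpn5 (1.84 and 1.14) and Krt86 (1.62 and 0.85).

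**Figure D3:**
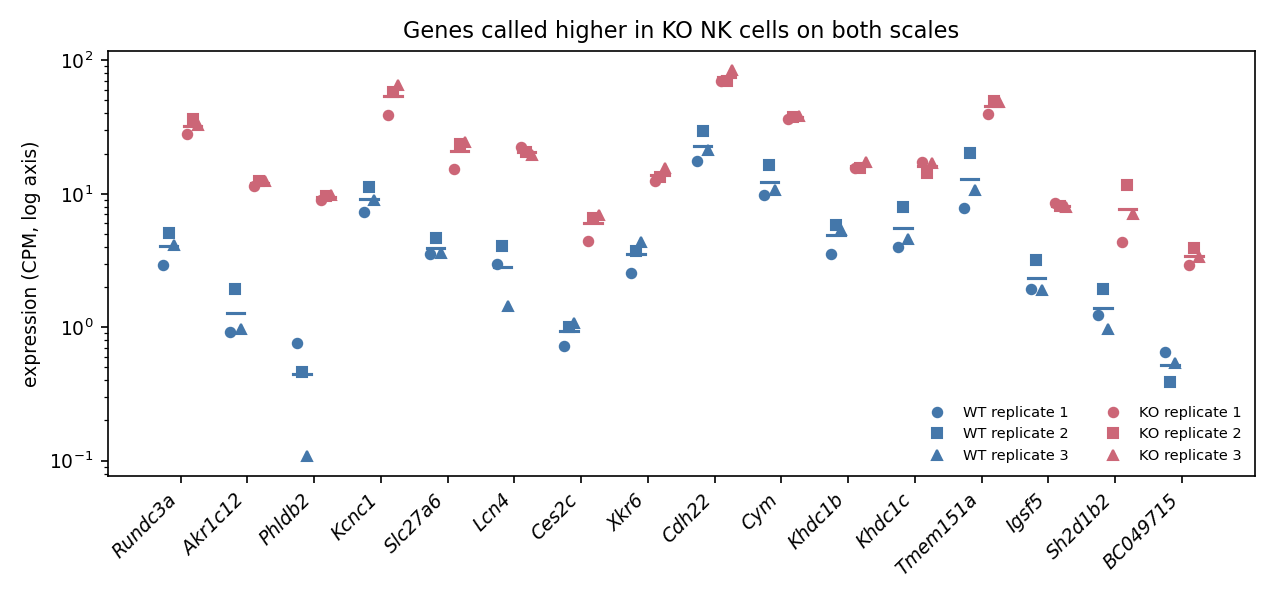
Expression (CPM, log axis) in each WT (blue) and KO (red) library of 16 genes called higher on both scales, with symbols for replicates and bars for group means. The WT and KO ranges do not overlap for any gene shown, as for all 372 genes called higher from these same libraries. Of all genes tested 19.1% lay higher in KO without overlap. Phldb2 goes from under 1 CPM to about 9 CPM.

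Several genes had no count in any WT library. There were 580 such genes with a count in at least 1 KO library, but 27 were counted in all 3 KO libraries and 6 reached 20 summed counts, whereas 681 genes had counts in WT and none in KO, 19 of them with 20 or more. Tcp11x2, an X-linked gene of the testis-expressed Tcp11 family, had 0 counts in each WT library and 62, 80 and 54 counts in the KO libraries, at least 59.2-fold higher when 3 counts over the WT group are taken as the floor. Ssxb10, an X-linked gene of the synovial sarcoma breakpoint family, had 20, 21 and 24 counts in KO, at least 19.6-fold higher. Scn2a1, a neuronal sodium channel, was at least 15.1-fold higher with 12, 12 and 26 counts. The next by summed counts were the olfactory receptor Olfr1258 and Ssxb9, with 29 counts each. Dnah5, an axonemal dynein heavy chain of motile cilia, was at 0.0540, 0 and 0 CPM in WT and 1.41, 1.62 and 2.06 CPM in KO, and Ttll2, a tubulin ligase-like gene, at 0.0540, 0 and 0 CPM and 1.14, 0.835 and 0.685 CPM. The olfactory receptor Olfr1342 was at 0, 0.0776 and 0 CPM in WT and 0.326, 0.593 and 0.905 CPM in KO. In each of these genes the rare WT counts were below every KO library. Ssxb10 and Ssxb9 are close paralogs whose reads the counting could have split. A list of germ-line and meiosis genes, 16 of 53 of which could be tested, had no call by edgeR or DESeq2, with 2 genes higher and 3 lower at an unadjusted p under 0.05.

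Called genes that lie next to each other were looked up in the order of tested genes on the chromosomes, with positions from GENCODE vM21. Of 361 placed genes that rose, 76 (21.1%) stood beside another that rose, and of 864 that fell, 155 (17.9%) stood beside another that fell. Of all 12795 genes tested and placed, 5.48% stood beside a gene that rose and 13.1% beside one that fell. The families in this paragraph were named after their values were seen. On chromosome 1, Khdc1a, Khdc1c and Khdc1b (chr1:21349641-21386373), KH domain genes known from oocytes and lymphocytes, all rose. Khdc1b went from 3.56, 5.86 and 5.32 CPM to 15.7, 15.7 and 17.2 CPM (log2 fold change 1.72) and Khdc1c by 1.57. Akr1c13 and Akr1c12 lie side by side on chromosome 13 and rose by 1.24 and 3.27. BC049715 and Smco3, neighbours on chromosome 6, were at 0.647, 0.388 and 0.537 CPM and 0.0540, 0.0776 and 0.107 CPM in WT and at 2.94, 3.91 and 3.34 CPM and 0.870, 0.700 and 0.658 CPM in KO (2.67 and 3.16). Lgr6, a receptor for R-spondins, rose from 0.162, 0.233 and 0.0537 CPM to 0.707, 0.808 and 1.15 CPM (2.60) beside Ptpn7, a phosphatase of lymphocytes, which rose by 0.53 but was at −0.27 on the pan-NK scale. Of the neighbouring carboxylesterases on chromosome 8, Ces2c rose from 0.728, 1.01 and 1.07 CPM to 4.43, 6.55 and 6.99 CPM (2.68) whereas Ces2g fell from 20.4, 12.4 and 15.4 CPM to 3.10, 3.10 and 4.44 CPM (−2.18, edgeR adjusted p = 0.0162). Of 8 Gimap genes tested, GTPases of lymphocyte survival that form a cluster on chromosome 6, 7 rose, by 0.53 (Gimap1) to 0.77 (Gimap9), and Gimap6 was at 0.37 (edgeR adjusted p = 0.0803), but their median was −0.11 on the pan-NK scale. In the Ces2, Khdc1, Akr1c and Gimap families the counting could have split reads between near-identical copies.

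The NK gene complex on distal chromosome 6 holds the lectin-like receptor genes of NK cells. Between Klrg1 and Klra2 (chr6:122270596-131247362) 25 Klr genes were tested, of which 14 rose and none fell, with a median log2 fold change of 0.79, against 1 higher and 5 lower of 84 other genes of the interval, whose median was −0.22. On the pan-NK scale the median of the Klr genes was 0.03, that is, they changed about as much as the pan-NK genes, 4 of which are among them. The longest row of neighbours called held 6 genes, Klre1 (0.84), Klrd1 (0.84), which encodes CD94, Klrk1 (0.87), which encodes NKG2D, Klrc3 (1.02), Klrc2 (0.87) and Klrc1 (0.83), which encodes the inhibitory NKG2A. Klrg1, a receptor for cadherins that marks late NK cells, stood out by its small spread, with 45.4, 50.5 and 43.1 CPM in WT and 94.2, 90.6 and 82.6 CPM in KO. Klra17 (−0.99, edgeR adjusted p = 0.0813) and Klra2 (−0.53) were lower without passing the test.

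**Figure D4:**
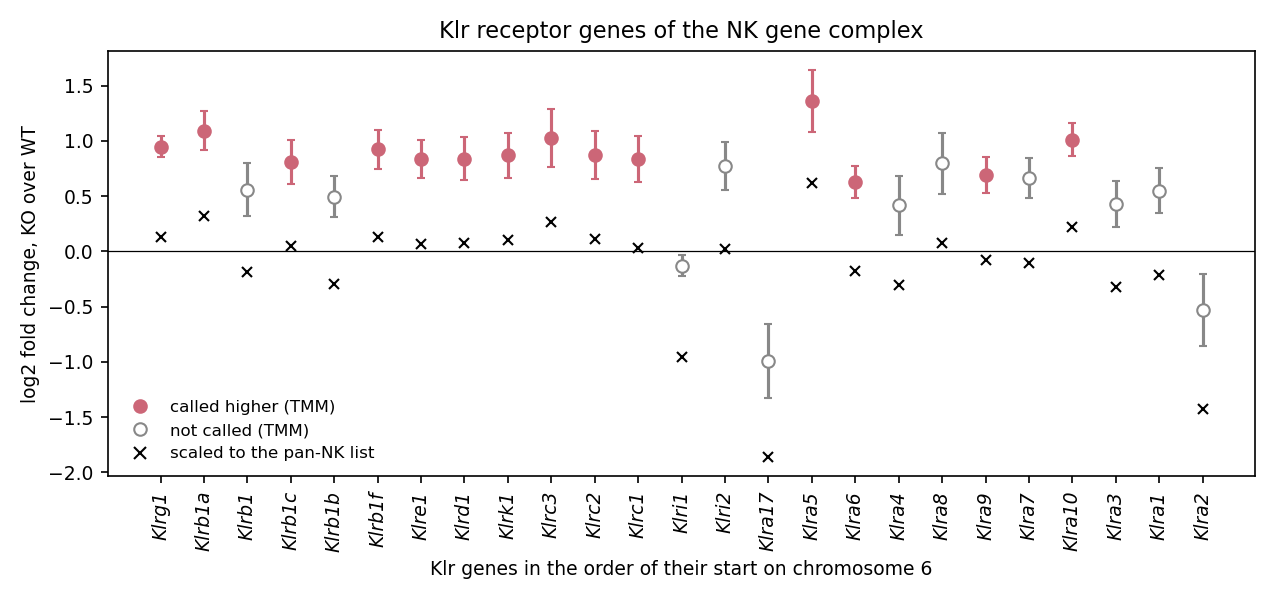
Log2 fold change (KO over WT, bars: SE) of the 25 Klr genes tested, in the order of their start on chromosome 6, with TMM scaling (circles, red where called) and on the pan-NK scale (crosses). Of the 25 genes 14 are called higher, and on the pan-NK scale most of the family lies near 0.

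Of 21 activating and adhesion receptors 8 rose and 1 fell, with a median of 0.53, or −0.23 on the pan-NK scale. Klrk1 was at 418, 698 and 433 CPM in WT and 866, 969 and 991 CPM in KO (edgeR adjusted p = 0.0414). Cd160, an immunoglobulin-like receptor of cytotoxic lymphocytes, rose from 76.2, 101 and 61.3 CPM to 143, 197 and 160.3 CPM (log2 fold change 1.07, 0.28 on the pan-NK scale), and Klrb1a by 1.09 (0.32). Tnfrsf9, the costimulatory receptor 4-1BB, rose by 0.71, but was at −0.08 on the pan-NK scale. Fcgr3, the Fc receptor CD16, fell from 195, 131 and 203 CPM to 118, 84.1 and 96.6 CPM (log2 fold change −0.82, edgeR adjusted p = 0.0412). Fcgr3 is also expressed by macrophages, whose genes were lower in all KO libraries, and their part in its fall was not tested.

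Inhibitory receptors moved both ways, with 9 of 27 higher and 5 lower. The 9 that rose are receptors typical of NK and T cells: Klrg1, Klrc1, Klrd1, Klre1, Cd96 and the Ly49 genes Klra5, Klra6, Klra9 and Klra10. Klra10 rose from 19.9, 30.3 and 25.5 CPM to 50.1, 50.9 and 51.2 CPM (log2 fold change 1.01, edgeR adjusted p = 0.0239), and Cd96, a receptor for nectins, from 58.3, 97.0 and 60.2 CPM to 134, 143 and 144 CPM (0.97). Klra5 rose by 1.36 at a low level (3.83, 7.68 and 4.08 CPM in WT and 13.5, 15.1 and 11.1 CPM in KO). Klra6 (0.62) and Klra9 (0.69) lay below 0 on the pan-NK scale, at −0.18 and −0.08, and Ly49 genes are near-identical copies between which reads could be split. The 5 that fell, Siglece (−1.99), Cd300a (−1.07), Lilrb4a (−0.97), Havcr2 (−0.70) and Lair1 (−0.60), are also expressed by myeloid cells. Siglece was at 151, 41.9 and 119.5 CPM in WT and 35.8, 17.9 and 25.1 CPM in KO, with WT replicate 2 close to the KO libraries. The macrophage list had the same order of libraries, and the part of myeloid cells in these 5 falls was not tested.

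Among 35 adaptors and proximal kinases 4 rose and none fell. Cd247, the CD3 zeta chain that signals for CD16 and NKp46, was at 93.7, 126 and 99.8 CPM in WT and 169, 181 and 166 CPM in KO (log2 fold change 0.69, edgeR adjusted p = 0.0279), and Lck, a Src family kinase, rose by 0.73. Both lay below 0, at −0.11 and −0.06, on the pan-NK scale. The adaptor genes Tyrobp (0.32), Fcer1g (0.30) and Hcst (0.45) did not pass the test.

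Of 17 genes of the lytic granule 7 rose and 1 fell. Gzma, a granzyme, was at 1162, 1839 and 1249 CPM in WT and 2648, 2347 and 2260.0 CPM in KO (log2 fold change 0.77, edgeR adjusted p = 0.0451). Cst7, which encodes cystatin F, an inhibitor of granule cathepsins, rose from 74.9, 109.5 and 85.5 CPM to 168, 190.4 and 173 CPM (0.98), and Ctsw, a cathepsin of cytotoxic cells, from 342, 590.4 and 333 CPM to 739, 908 and 772 CPM (0.93). Gzmm rose by 1.07 and Nkg7, which promotes degranulation, by 0.83. The neighbouring genes Serpinb9 and Serpinb9b on chromosome 13 encode serpins of the granzyme B inhibitor family. Serpinb9b rose by 1.27 (23.7, 33.6 and 19.8 CPM in WT and 69.5, 54.8 and 61.6 CPM in KO, 0.51 on the pan-NK scale) and Serpinb9 by 0.76, though it was at −0.03 on that scale. Prf1, which encodes perforin, was at 560.4, 903 and 625 CPM in WT and 941, 1298 and 1206 CPM in KO and missed the threshold (0.72, edgeR adjusted p = 0.0554), as did Gzmb (290.2, 388 and 313 and 483, 458 and 367 CPM, 0.40, edgeR adjusted p = 0.0962). Lamp1, the lysosomal membrane protein used to stain degranulating cells, fell by 0.58 on the log2 scale and is expressed in all cell types of the spleen. The machinery of granule priming and fusion, 19 genes, held no call by edgeR or DESeq2, with 4 higher and 3 lower at an unadjusted p under 0.05.

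Ifng, on chromosome 10, encodes interferon-gamma and was at 15.9, 25.4 and 16.2 CPM in WT and 39.3, 43.0 and 38.3 CPM in KO, without overlap (log2 fold change 1.07, SE 0.19, edgeR adjusted p = 0.0279, 0.30 on the pan-NK scale). Csf2, which encodes GM-CSF, was the other one of 10 NK cytokines that was called (2.75, 3.84 and 2.23 CPM in WT, 6.34, 10.1 and 5.68 CPM in KO, log2 fold change 1.33). Tnf did not pass the test (0.28, edgeR adjusted p = 0.208). Of 6 chemokine genes Ccl4 rose by 0.60 and Xcl1, which attracts cross-presenting dendritic cells, by 0.81, whereas Ccl9, a chemokine of myeloid cells, fell by 0.58 on the log2 scale. On the pan-NK scale Ccl4 was at −0.21 and Xcl1 at 0.0048. Ccl5 and Ccl3 were at 0.47 and 0.46, without a call. Of 9 death ligands and receptors Tnfsf14, which encodes LIGHT, was called (45.1, 59.8 and 62.2 CPM in WT, 89.3, 87.9 and 88.7 CPM in KO, 0.67, but −0.15 on the pan-NK scale), and Fasl missed the threshold (0.63, edgeR adjusted p = 0.0560).

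Tbx21, which encodes T-bet, was at 284, 443 and 292 CPM in WT and 546, 707 and 644 CPM in KO (log2 fold change 0.90, edgeR adjusted p = 0.0368). Id2, an inhibitor of E proteins required for NK cells, was at 389, 487 and 351 CPM in WT and 692, 751 and 824 CPM in KO (0.89, edgeR adjusted p = 0.0269). On the pan-NK scale they were at 0.12 and 0.08, and Tbx21 is itself one of the 12 genes that set that scale. The study's RT-qPCR primers for both genes and the forward primer for Ifng are shown because they mark the places in the transcripts that its PCR read, whereas the counts here were summed over the whole gene.
Tbx21 forward: aaccgcttatatgtccaccca
Tbx21 reverse: cttgttgttggtgagctttagc
Id2 forward: tccggtgaggtccgttagg
Id2 reverse: cagactcatcgggtcgtcc
Ifng forward: atgaacgctacacactgcatc
Each of these 5 primers matched GENCODE vM21 transcripts of its gene without a mismatch and lay in coding sequence on GRCm38: the Tbx21 pair in exon 3 of 6 on the minus strand (chr11:97101503-97101598 from the reverse to the forward primer), the Id2 pair in exon 1 of 3 on the minus strand (chr12:25095906-25095996) and the Ifng primer in exon 1 of 4 on the plus strand (chr10:118441155-118441175). The reverse primer listed for Ifng matched no transcript of the gene as written and is not shown.

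Of the 49 transcription factors tested 6 rose, Tbx21 and Id2 included, and 2 fell. Nfil3, which starts the NK lineage, was at 24.8, 35.3 and 35.1 CPM in WT and 46.9, 54.0 and 48.7 CPM in KO (0.65), Gfi1 rose by 0.86, Irf1 by 0.53, and Hopx, a homeodomain protein of mature NK cells, from 30.7, 38.8 and 29.9 CPM to 71.6, 70.2 and 52.0 CPM (0.96). Nfil3 and Irf1 were at −0.16 and −0.28 on the pan-NK scale. Eomes (308, 649 and 377 CPM in WT, 607, 824 and 799 CPM in KO, 0.74, edgeR adjusted p = 0.0962), Zeb2 (0.16), Prdm1 (0.18) and Tcf7 (0.39) did not pass the test. Myb, a factor of progenitors and cycling cells, fell with little spread from 111, 96.9 and 96.1 CPM to 51.6, 50.8 and 57.2 CPM (log2 fold change −0.93, SE 0.09, edgeR adjusted p = 0.0162). Ahr, the aryl hydrocarbon receptor, fell from 22.9, 18.2 and 29.1 CPM to 13.9, 11.9 and 14.6 CPM (−0.80). Gfi1b, which is not on that list, encodes a repressor of erythroid and megakaryocytic cells related to GFI1. It had the smallest p of all genes that fell and went from 16.4, 18.1 and 17.2 CPM to 8.10, 8.35 and 8.14 CPM (−1.07, edgeR adjusted p = 0.0162).

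Genes reported to be higher in late, CD11b+ CD27- NK cells included 8 of 16 that rose and none that fell, with a median of 0.60, or −0.21 on the pan-NK scale. Itgam, which encodes CD11b, was at 111, 128 and 116 CPM in WT and 178, 175 and 195 CPM in KO (log2 fold change 0.62, edgeR adjusted p = 0.0239, but −0.20 on the pan-NK scale). S1pr5, the receptor by which mature NK cells leave the marrow, rose from 224, 374 and 273 CPM to 517, 611 and 583 CPM (0.97, 0.20 on the pan-NK scale), and Cma1 from 74.3, 128 and 84.6 CPM to 179, 197 and 190.3 CPM (0.98). Rap1gap2 (0.71) and Ly6c2 (0.63) lay at −0.07 and −0.21 on the pan-NK scale. Of 17 genes of early, CD27+ NK cells 2 rose and none fell (median 0.28), namely Xcl1 and Cd7 (0.67, but −0.15 on the pan-NK scale, where the median of the list was −0.51). Cd27 itself was at 109, 152 and 91.9 CPM in WT and 143, 174 and 161 CPM in KO (0.44, edgeR adjusted p = 0.122). Whether the late list rose more than the early list was not tested. Adora2a, an adenosine receptor that restrains lymphocytes, rose from 65.0, 83.4 and 63.5 CPM to 128, 132 and 144 CPM (0.93, edgeR adjusted p = 0.0215). Cx3cr1 was at −0.13 and S1pr1 at −0.39, without a call.

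In cytokine signalling, Cish, an IL-15-induced inhibitor of JAK1, went from 15.1, 13.9 and 12.4 CPM to 32.3, 27.3 and 26.3 CPM (log2 fold change 1.05, edgeR adjusted p = 0.0181, 0.23 on the pan-NK scale), and Socs1 from 25.1, 29.8 and 24.2 CPM to 57.4, 54.7 and 40.6 CPM (0.95). They were the called members of 11 feedback inhibitors. Jak3, which signals for the common gamma chain, rose from 203, 206 and 217 CPM to 282, 389.8 and 359.6 CPM (0.72, but −0.13 on the pan-NK scale). Of 31 cytokine receptors Il27ra rose (0.64, but −0.19 on the pan-NK scale) and 5 fell: Csf2rb (−0.92), Csf2rb2 (−0.84), Il6ra (−0.75), Il6st (−0.73) and Il1r2 (−2.86). Il1r2 is also on the neutrophil list, and the part of other cells in these falls was not tested. Csf2rb and Csf2rb2 are near-identical copies that encode beta chains of the IL-3 receptor. In WT they were at 246, 206 and 308 CPM and 164, 132 and 145 CPM. In KO they were at 139.7, 134 and 127 CPM and 82.5, 88.6 and 75.1 CPM. Il2rb, the IL-15 receptor beta chain, varied within WT (1247, 2327 and 1246 CPM) and reached 2045, 3033 and 2955 CPM in KO, so that it was not called (0.74, edgeR adjusted p = 0.104). The IL-12 and IL-18 receptor genes Il12rb1 (0.81), Il12rb2 (0.70), Il18r1 (0.66) and Il18rap (0.68) also missed the threshold, with adjusted p between 0.0554 and 0.0643.

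Of 45 cell cycle genes 23 fell and none rose, with a median of −0.62. On the pan-NK scale, where all 882 genes that fell kept a negative value, the median of the list was −1.46. Ube2c, a ubiquitin-conjugating enzyme of mitotic exit, was at 40.4, 36.9 and 36.99 CPM in WT and 20.4, 23.5 and 19.7 CPM in KO (log2 fold change −0.84, edgeR adjusted p = 0.0188). Top2a was at 108, 93.5 and 95.8 CPM in WT and 54.3, 73.9 and 60.5 CPM in KO (−0.66), Ccna2, cyclin A, at 39.4, 36.5 and 33.4 and 19.4, 23.9 and 19.4 CPM (−0.80), and E2f8 at 31.8, 34.0 and 35.5 and 17.1, 21.2 and 19.8 CPM (−0.80). Cdk1 fell by 0.82, Birc5 by 0.80 and Aurkb by 0.76 on the log2 scale. Mki67 was at 174, 172 and 176 CPM in WT and 75.4, 142 and 94.3 CPM in KO and missed the threshold (−0.74, edgeR adjusted p = 0.0551). The mitotic kinase gene Plk1 (−0.62), the kinesin genes Kif11 (−0.70) and Kif23 (−0.63) and the nucleotide synthesis genes Rrm2 (−0.63) and Tk1 (−0.62) were also called, whereas the replication genes Pcna (0.23) and Mcm2 (−0.04) did not pass the test, and Ccnd2, a G1 cyclin that is not on this list, rose from 225, 235 and 218 CPM to 297, 349.6 and 347 CPM (0.55, but −0.29 on the pan-NK scale). Slc7a5, the large neutral amino acid transporter of growing lymphocytes, fell from 46.4, 32.6 and 38.6 CPM to 20.2, 19.8 and 20.7 CPM (−0.95). Erythroid progenitors, whose genes were lower in the KO libraries, also cycle, and the share of the cell cycle counts that came from them was not tested.

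MHC class I and class II genes moved in opposite directions. All 17 class I presentation genes had positive fold changes, and 4 were called: H2-Q4 (0.51), H2-Q6 (0.60), H2-Q7 (0.63) and Nlrc5 (0.58), the class I transactivator. On the pan-NK scale the median of the 17 was −0.56 and the values of these 4 were negative (−0.29, −0.19, −0.18 and −0.26). H2-Q genes are near-identical copies in a row on chromosome 17. All 11 class II genes were lower and 7 were called, among them Ciita, the class II transactivator, at 269.9, 214 and 311 CPM in WT and 168, 99.2 and 102 CPM in KO (−1.10). Class II molecules are carried by B cells, dendritic cells and macrophages, and the median log2 fold changes of their marker lists were −2.18, −0.74 and −1.84. The part of these cells in the class II falls was not tested.

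**Figure D5:**
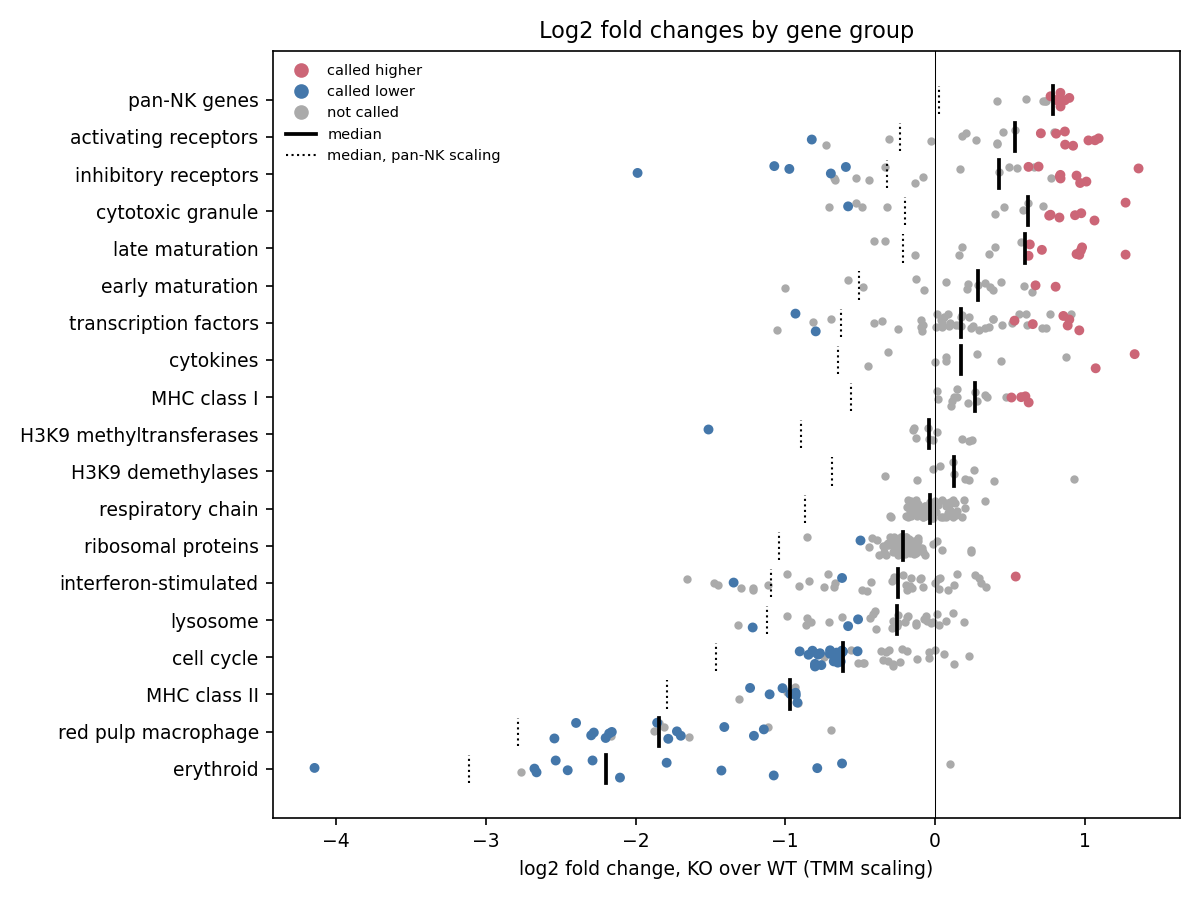
Log2 fold change (KO over WT, TMM scaling) of the tested members of 19 gene groups, red where called higher, blue where called lower and grey where not called, with each group's median (solid bar) and its median on the pan-NK scale (dotted bar). By the solid bars NK cell groups lie to the right and cell cycle, MHC class II, macrophage and erythroid groups to the left. By the dotted bars every NK cell group except the pan-NK genes lies below 0.

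Of 21 red pulp macrophage genes 14 fell, among them Hmox1, heme oxygenase, from 2242, 407 and 1171 CPM to 283, 144 and 229 CPM (log2 fold change −2.54, edgeR adjusted p = 0.0402) and Vcam1 from 940.4, 176 and 586 CPM to 149, 65.1 and 133 CPM (−2.30). In both, WT replicate 2 was nearer to the KO libraries than to the other WT libraries. Of 14 erythroid genes 12 fell. Alas2, which starts heme synthesis in red cell precursors, was at 7.72, 4.73 and 10.3 CPM in WT and 1.03, 1.13 and 1.43 CPM in KO (−2.66, edgeR adjusted p = 0.0181), and Car1, carbonic anhydrase, at 124, 61.8 and 81.8 and 21.8, 17.3 and 23.1 CPM (−2.10). The B cell markers Cd79a (217, 134 and 397 CPM in WT, 122, 8.03 and 8.53 CPM in KO) and Ms4a1 (64.4, 43.8 and 132 and 37.3, 2.86 and 4.03 CPM) were highest in WT replicate 3, had KO replicate 1 just under WT replicate 2, and were not called (edgeR adjusted p = 0.136 and 0.109), while the B cell genes Fcrla (−2.12) and Spib (−1.27) fell. Of 17 neutrophil genes 4 fell, with S100a8 at 63.3, 23.7 and 249.5 CPM in WT and 30.9, 0.269 and 0.548 CPM in KO and without a call. The neutrophil marker Ly6g had no count in KO replicates 2 and 3. T cell markers did not move together: Cd3e was at 13.7, 6.59 and 11.95 CPM in WT and 12.2, 3.96 and 5.81 CPM in KO, and of 13 genes Cd3g and Cd28 rose by 0.59 and 0.66, but were at −0.25 and −0.15 on the pan-NK scale. Of dendritic cell genes Clec9a (−1.17), Sirpa (−1.12) and Siglech (−1.30) fell, 3 of 15, and of platelet genes Gp6 (−0.72) and Treml1 (−0.68), 2 of 13. Monocyte genes included Csf1r (−1.21), Cd14 (−2.34) and Vcan (−3.98) that fell and Ly6c2 and Itgam that rose, the latter also genes of mature NK cells.

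The largest falls belonged to digestive enzymes of the pancreas, an organ that touches the spleen. All 16 acinar genes tested fell, with a median of −7.69, and the list summed to 319, 527 and 1933 CPM in WT and 21.1, 27.9 and 18.6 CPM in KO. Clps, colipase, was at 9.47, 16.4 and 49.7 CPM in WT and 0, 0.108 and 0 CPM in KO (log2 fold change −9.31, edgeR adjusted p = 0.0162), and Cela2a, an elastase, at 33.3, 59.0 and 231 and 0, 1.02 and 0.110 CPM (−8.14). The fitted changes of genes this close to 0 depend on the small prior count of the fit. WT replicate 3 was highest for both, and of the 19 genes listed 14 had no count in KO replicate 1, 3 in KO replicate 2 and 10 in KO replicate 3. These enzymes are not known as products of NK cells, and the source of their counts was not tested.

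Other genes also fell, of which Gclm, Mt2, Spi1 and Fth1 were chosen after their values were seen. Ctnnd2, a catenin best known from neurons, was at 41.5, 34.3 and 42.6 CPM in WT and 20.4, 18.4 and 18.4 CPM in KO (log2 fold change −1.05, edgeR adjusted p = 0.0162), and Soga1 at 28.4, 20.8 and 21.5 CPM and 9.84, 9.27 and 10.3 CPM (−1.27). Muc13, a membrane mucin, fell from 31.6, 22.5 and 31.8 CPM to 11.97, 12.1 and 11.8 CPM (−1.26). In these genes each KO library lay below the lowest WT library and WT replicate 2 was the lowest of its group. The groups did not overlap in 878 of the 882 genes that fell, and 19.3% of all genes tested lay lower in KO without overlap. The calls were made on these same libraries, so the lack of overlap adds no separate support. Tlr9, a sensor of unmethylated DNA in B cells and plasmacytoid dendritic cells, fell from 81.1, 63.5 and 77.9 CPM to 38.3, 34.7 and 29.3 CPM (−1.12), and Gclm, a subunit of the enzyme that starts glutathione synthesis, from 82.9, 74.7 and 93.3 CPM to 48.9, 50.1 and 49.95 CPM (−0.75). Mt2, a metallothionein, fell by 2.45 on the log2 scale. Spi1, which encodes the myeloid and B cell factor PU.1, was at 518, 373 and 565 CPM in WT and 335, 217 and 202 CPM in KO (−0.95), and Fth1, the ferritin heavy chain, at 2267, 1437 and 2179 CPM and 1345, 988 and 984 CPM (−0.83).

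Activation and co-stimulation genes were split. Of 26 immediate early genes Nr4a2 (0.59) and Dusp2 (122, 162 and 141 CPM in WT, 225, 224 and 226 CPM in KO, 0.67), a phosphatase that limits MAP kinases, rose, but on the pan-NK scale they were at −0.24 and −0.13. Of 12 genes of the SLAM family and its adaptors Sh2d1b2, Ly9 (0.54) and Cd48 (0.56), the ligand of 2B4, rose, and Slamf9 (−1.04) fell, with Ly9 and Cd48 at −0.28 and −0.25 on the pan-NK scale. Tnfrsf18, which encodes GITR, rose from 49.1, 65.3 and 47.1 CPM to 92.7, 92.4 and 88.0 CPM (0.76, −0.03 on the pan-NK scale), while Ltbr, the lymphotoxin beta receptor of stromal and myeloid cells, fell by 1.13 on the log2 scale. Dll1, a Notch ligand, rose from 10.7, 10.5 and 8.09 CPM to 16.1, 34.7 and 22.4 CPM (log2 fold change 1.32, edgeR adjusted p = 0.0351, 0.47 on the pan-NK scale). Of 10 other activation markers and nutrient receptors Cd83 (−0.95), Tfrc (−0.79), the transferrin receptor that is also an erythroid gene, and Slc7a5 fell. The receptors Axl (−1.86) and Mertk (−2.16) and their ligand gene Pros1 (−0.81) fell, 3 of 5 TAM receptor and ligand genes, and Axl and Mertk are also on the macrophage list.

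Ribosomal protein genes lay slightly below 0 with a median of −0.21, and Rps19 was the one called of 79 (616, 603 and 601 CPM in WT, 513, 396 and 376 CPM in KO, −0.50). Of 24 glycolysis and hypoxia genes Hk2, hexokinase 2, fell (30.3, 25.1 and 32.6 CPM in WT, 21.0, 16.2 and 17.1 CPM in KO, −0.70). Of 19 genes of the integrated stress and unfolded protein responses Asns, asparagine synthetase, fell (5.67, 0.931 and 4.06 CPM in WT, 0.653, 0.754 and 0.768 CPM in KO, −2.30), with WT replicate 2 at the level of the KO libraries.

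Several groups showed no call. Respiratory chain genes of the nuclear genome (75 tested, median −0.04), NF-kB subunits and regulators (21, −0.0017), cholesterol synthesis (26, −0.11), heat shock proteins (15, −0.01), AP-1 subunits (12, 0.10) and store-operated calcium entry (11, 0.24) held none by edgeR or by DESeq2 at an adjusted p under 0.01. At an unadjusted p under 0.05 they held 0, 3, 2, 2, 4 and 1 higher and 2, 4, 4, 1, 1 and 2 lower genes in this order. Of p53 targets and BCL2 family genes, 17 each, edgeR called none, DESeq2 called 2 and 1 lower, and 2 of either were higher and 5 and 4 lower at an unadjusted p under 0.05. Of 42 interferon-stimulated genes Gbp4 rose (0.54, but −0.26 on the pan-NK scale) and Ifih1 (−0.62) and Slfn5 (−1.35) fell, with a median of −0.24. Lysosome and autophagy genes had a median of −0.25, and 3 of 35 fell, among them Lamp1 and Ctsl (−1.22). Of 301 numbered zinc finger genes, 229 had positive fold changes, and 7 rose and 8 fell. Their median was 0.20, or −0.64 on the pan-NK scale. Of all 13189 genes tested 6797 had positive fold changes, and 2.82% rose and 6.69% fell. The median of all genes was 0.01, or −0.82 on the pan-NK scale.

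The regions around the floxed gene and around the gene that drives Cre were examined within 500000 bases on either side. Around Ehmt2 53 other genes were tested, H2-Q4 rose and 2 genes fell, Ly6g6f and Btnl4, with a median of −0.07. Around Ncr1, on chromosome 7, none of 25 genes rose and 5 fell, Gm14548, Pira2, Cox6b2, Gp6 and Lair1, with a median of −0.29. Over all genes tested 2.82% rose and 6.69% fell. Gp6 is also on the platelet list, and Lair1 is also expressed by myeloid cells. A local effect was not tested. Ncr1 itself was at 333, 542 and 333 CPM in WT and 455, 583 and 576 CPM in KO (log2 fold change 0.42, edgeR adjusted p = 0.185).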

How the data were processed

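RNA-seq measured polyA RNA of splenic NK cells in 3 WT and 3 KO libraries. The authors deposited a table of raw read counts per gene symbol. Per the labels and the study's methods, reads were trimmed with fastp 0.23.4, aligned to GRCm38 with STAR 2.7.11b allowing 2 mismatches and counted with HTSeq 2.0.3, and the authors tested with DESeq2. The annotation release and the strand setting are not given in the sources used here, so a gene and an overlapping or antisense partner cannot always be told apart.

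Counts were tested with the quasi-likelihood test of edgeR 4.0.16 (R 4.3.3) after filterByExpr, TMM scaling and Benjamini-Hochberg adjustment over 13189 genes, in a model with genotype alone. CPM values are TMM-scaled. The members, gene lists and thresholds were chosen with earlier results of these data known, and the threshold of 0.05 was used because edgeR called no gene at 0.01. Genes were named from those that were in the study's question, were among the 12 smallest adjusted p or 12 largest fold changes in a direction, were called or highly expressed members of a list, or had counts in KO only. Other genes named were chosen after their values were seen. Alternatives were DESeq2 1.42.0, limma 3.58.1 (voom), other scalings and filters, a replicate block and leaving out each library. Leaving out WT replicate 2 and KO replicate 1 together was chosen after seeing the data. The scripts were tested on simulated data. Principal components were taken from log2 CPM with a prior count of 2. Precision is limited by 3 libraries a group. Positions are from GENCODE vM21, which was not shown to be the release used for counting. Replicate numbers were not used as pairs. Deviations from the group means correlated at 0.28, 0.35 and −0.19 between libraries of the same number, which cannot show whether the samples were paired. The human libraries of the series were not used here, and 0 columns of samples were unmapped. Most called genes, and some that the naming rule covers, are not reported here.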

Additional observations from a re-analysis of the deposited data

How the results depend on the processing

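The counts of 372 genes called higher and 882 called lower stayed within 1.5 times with DESeq2's size factors (356 and 899), library totals (386 and 821), no filter on low counts (412 and 1046), a mean CPM of at least 1 (348 and 861), limma-voom (412 and 787) and robust dispersions (350 and 687). DESeq2 called 565 and 1644 genes at an adjusted p under 0.05. The pan-NK scale gave 35 and 8818. An adjusted p under 0.01 left 0 and 0 by edgeR, no fold threshold gave 585 and 980, and a log2 fold change over 1 gave 105 and 479. Leaving out 1 library at a time gave 0 to 905 genes higher and 0 to 1835 lower, with the highest counts without WT replicate 2 and 0 without KO replicate 2 or KO replicate 3. Without WT replicate 2 and KO replicate 1 together, an alternative added after seeing the data, the counts were 1109 and 2282. With a replicate block they were 573 and 1572, and it changed no direction among the 210 genes named. Correlations between libraries of the same number cannot show whether the samples were paired, so the block is not read as a pairing. At an adjusted p of 0.01 edgeR called 417 higher and 746 lower genes once WT replicate 2 was left out. The change of Ehmt2 stayed between −1.01 and −0.84 with 1 library left out and lost its call without WT replicate 3 (edgeR adjusted p = 0.0587), KO replicate 2 (0.0986) or KO replicate 3 (0.121). With the replicate block it was −0.91 and on the pan-NK scale −1.73. The first principal component took 68.1% of the variance over all genes tested and 68.2% to 82.4% with 1 library left out.

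Among the 210 genes named, of which 172 were called, 129 lost their call without WT replicate 1, 1 without WT replicate 2, 164 without WT replicate 3, 22 without KO replicate 1, 172 without KO replicate 2, 172 without KO replicate 3, 15 with limma-voom, 26 with robust dispersions and 37, in the same direction, on the pan-NK scale. With any other setting, leaving out no library, at most 3 did. This does not count named genes that the filter on a mean CPM of at least 1 removed, such as Dnah5 and Btnl4. Setdb1, near 0, turned to 0.010 without WT replicate 3 and to 0.025 without KO replicate 3. On the pan-NK scale, where all genes shift by the rise of the NK cell genes, the log2 fold change of 56 genes turned negative, namely Ccl3 (−0.33), Ccl4 (−0.21), Ccl5 (−0.31), Ccnd2 (−0.29), Cd247 (−0.11), Cd27 (−0.34), Cd28 (−0.15), Cd3g (−0.25), Cd48 (−0.25), Cd7 (−0.15), Cdyl2 (−0.32), Dusp2 (−0.13), Ehmt1 (−0.75), Eomes (−0.0025), Fasl (−0.14), Fcer1g (−0.52), Gbp4 (−0.26), Gimap1 (−0.28), Gimap6 (−0.42), Gimap9 (−0.018), Gzmb (−0.39), H2-Q4 (−0.29), H2-Q6 (−0.19), H2-Q7 (−0.18), Hcst (−0.31), Il12rb2 (−0.094), Il18r1 (−0.10), Il18rap (−0.087), Il27ra (−0.19), Il2rb (−0.016), Irf1 (−0.28), Itga2 (−0.17), Itgam (−0.20), Jak3 (−0.13), Klra6 (−0.18), Klra9 (−0.080), Lck (−0.060), Ly6c2 (−0.21), Ly9 (−0.28), Ncr1 (−0.35), Nfil3 (−0.16), Nlrc5 (−0.26), Nr4a2 (−0.24), Pcna (−0.62), Prdm1 (−0.62), Prf1 (−0.061), Ptpn7 (−0.27), Rap1gap2 (−0.073), Serpinb9 (−0.033), Tcf7 (−0.40), Tnf (−0.57), Tnfrsf18 (−0.032), Tnfrsf9 (−0.081), Tnfsf14 (−0.15), Tyrobp (−0.51) and Zeb2 (−0.70). Eomes, Il2rb, Itga2, Ncr1 and Prf1 are themselves among the 12 genes that set this scale. The cause of these changes of sign was not tested. At this depth and with 3 libraries a group, the rule used here calls no change under 0.5 on the log2 scale, and a gene without a call is not shown to be equal in both genotypes.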
